A study of Homo sapiens with 18 samples.

Results

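The ephrins, semaphorins, netrins and SLIT proteins, with their Eph, plexin, neuropilin, DCC, UNC5 and ROBO receptors, were followed through the first 4 days of neural differentiation of a human stem cell line. They were taken by gene symbol alone: every row of the deposited expression table named as an EPHA, EPHB, EFNA, EFNB, SEMA3 to SEMA7, PLXN, NRP, NTN, DCC, UNC5, SLIT or ROBO family gene, 69 of 37550 rows. The rule itself uses no measured value, but the members were chosen with earlier results of these data known. Messenger RNA was measured in 18 libraries of H1, an established wild-type human pluripotent stem cell line, in 9 groups of 2 biological replicates. All comparisons are therefore within 1 line, and p-values measure the spread between cultures of it.

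Undifferentiated H1 cells at day 0 form the group hPSC. On day 1 all other groups were in 1 shared medium that directs cells to definitive ectoderm. It held the TGF-beta receptor inhibitor A8301 at 1 µM, the BMP receptor inhibitor LDN193189 at 100 nM, the MEK inhibitor Trametinib at 250 nM and C59 at 1 µM, an inhibitor of the secretion of WNT ligands. Anterior neural ectoderm (aNE) then received A8301, LDN193189 and C59 for the second day. Posterior neural ectoderm (pNE) received A8301 and LDN193189 with 3 further agents: TTNPB (50 nM), which activates retinoic acid receptors, the growth factor FGF2 (20 ng/mL) and XAV939 (1 µM), which blocks tankyrase and so dampens the WNT pathway inside the cell. Both day-2 media held Thiazovivin at 1 µM for survival after passaging. Cells of each origin were also carried to day 4 in forebrain medium (aNE_T and pNE_T), midbrain medium (aNE_M and pNE_M) or hindbrain medium (aNE_H and pNE_H). The forebrain medium of day 3 held XAV939 at 1 µM, LDN193189 at 100 nM and FGF2 at 20 ng/mL, and what the other 2 media held is not used here. For day 4, aNE was plated at 75000 and pNE at 150000 cells per cm2, against 37500 for both at day 2, so origin and plating density cannot be told apart at day 4.

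Guidance genes encode the cues and receptors by which growing axons and migrating cells choose a path. Ephrins are anchored in the membrane of one cell and bind Eph receptor kinases on its neighbour, and in the early neural tube they keep cells of neighbouring territories apart. Secreted class 3 semaphorins signal through neuropilins paired with class A plexins, most membrane semaphorins bind plexins directly, netrins attract through DCC and repel through UNC5 receptors, and SLIT proteins repel through ROBO receptors. Many are patterned along the axis of the neural tube well before axons grow.

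Values are TPM, transcript abundances scaled for transcript length and library total, so that levels can be compared between genes. TPM keeps no record of read number, so the depth of a library is unknown and a value of 0 is only listed at 0. Of the 69 guidance genes, 66 had at least 1 TPM in at least 2 libraries and were tested among 17033 genes. Tests were run with limma on log2(TPM + 1), and a gene counts as called where the adjusted p was below 0.05 and the log2 difference was at least 1 in size. All log2 differences below are on this scale, an error after ± is limma's SE, and a pair of TPM values gives replicates 1 and 2 of a group. Genes named for a comparison were mostly chosen among those whose 2 groups do not overlap, so a lack of overlap is no added support for them. EPHA5, ROBO4 and NTN5 fell below the filter, and EPHA8 and SEMA3D passed it through the libraries of 1 group each (hPSC and pNE_M). EPHA5 and ROBO4 did not pass 0.456 and 0.538 TPM in any library.

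The summed level of the guidance genes was 1272 to 2166 TPM per library, and 54 to 58 of them were at or above 1 TPM. In the pNE group replicate 2 was above replicate 1 for 51 of the 66 tested genes, by a median of 0.19 on the log2 scale against 0.06 over all genes, and in aNE_H replicate 2 was above replicate 1 for 17, with a median of -0.19 against -0.04. The pluripotency gene POU5F1 was at 2899.8 and 2878 TPM in hPSC, 162 and 164 TPM in aNE and 171 and 169 TPM in pNE, with group means of 2.77 to 5.46 TPM at day 4. The neural gene PAX6 was at 28.9 and 29.3 TPM in aNE and 1.34 and 2.54 TPM in pNE. The neural progenitor list that includes PAX6 differed less, at 788 and 770 TPM in aNE and 588 and 692 TPM in pNE, against 304 and 301 TPM in hPSC. The 8 genes of the neuronal list summed to 62.7 to 606 TPM per library, led by TUBB3, and STMN2 was at 20.4 and 22.4 TPM in aNE_M. Of the same list, DCX, ELAVL3, ELAVL4 and NEUROD1 had group means at or below 1.87 TPM. The mesendoderm list was highest in the midbrain medium groups, in aNE_M mainly through MIXL1. The 7 genes of that list summed to 97.2 and 117 TPM in aNE_M and 15.9 and 16.8 TPM in pNE_M against 0.83 to 5.93 TPM in the other 14 libraries, led by MIXL1 at 78 and 94.9 TPM in aNE_M, with SOX17 listed at 0 in both aNE_M libraries. In bulk RNA, fewer cells of a type and less RNA per cell cannot be told apart. Strand use in the quantification is not given in the sources used here, and 16 of the 69 genes overlap a gene of the table on the opposite strand in the GENCODE 29 annotation (EPHA1 with ZYX, EPHB1 with KY, EPHB4 with SLC12A9, PLXNA3 with LAGE3, EPHA4 with the pseudogene TMEM256P2 and SEMA6A with the pseudogene RPS14P8 among them). Overlap was taken over whole gene spans, introns included, and overlap of exons was not checked.

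**Figure D1:**
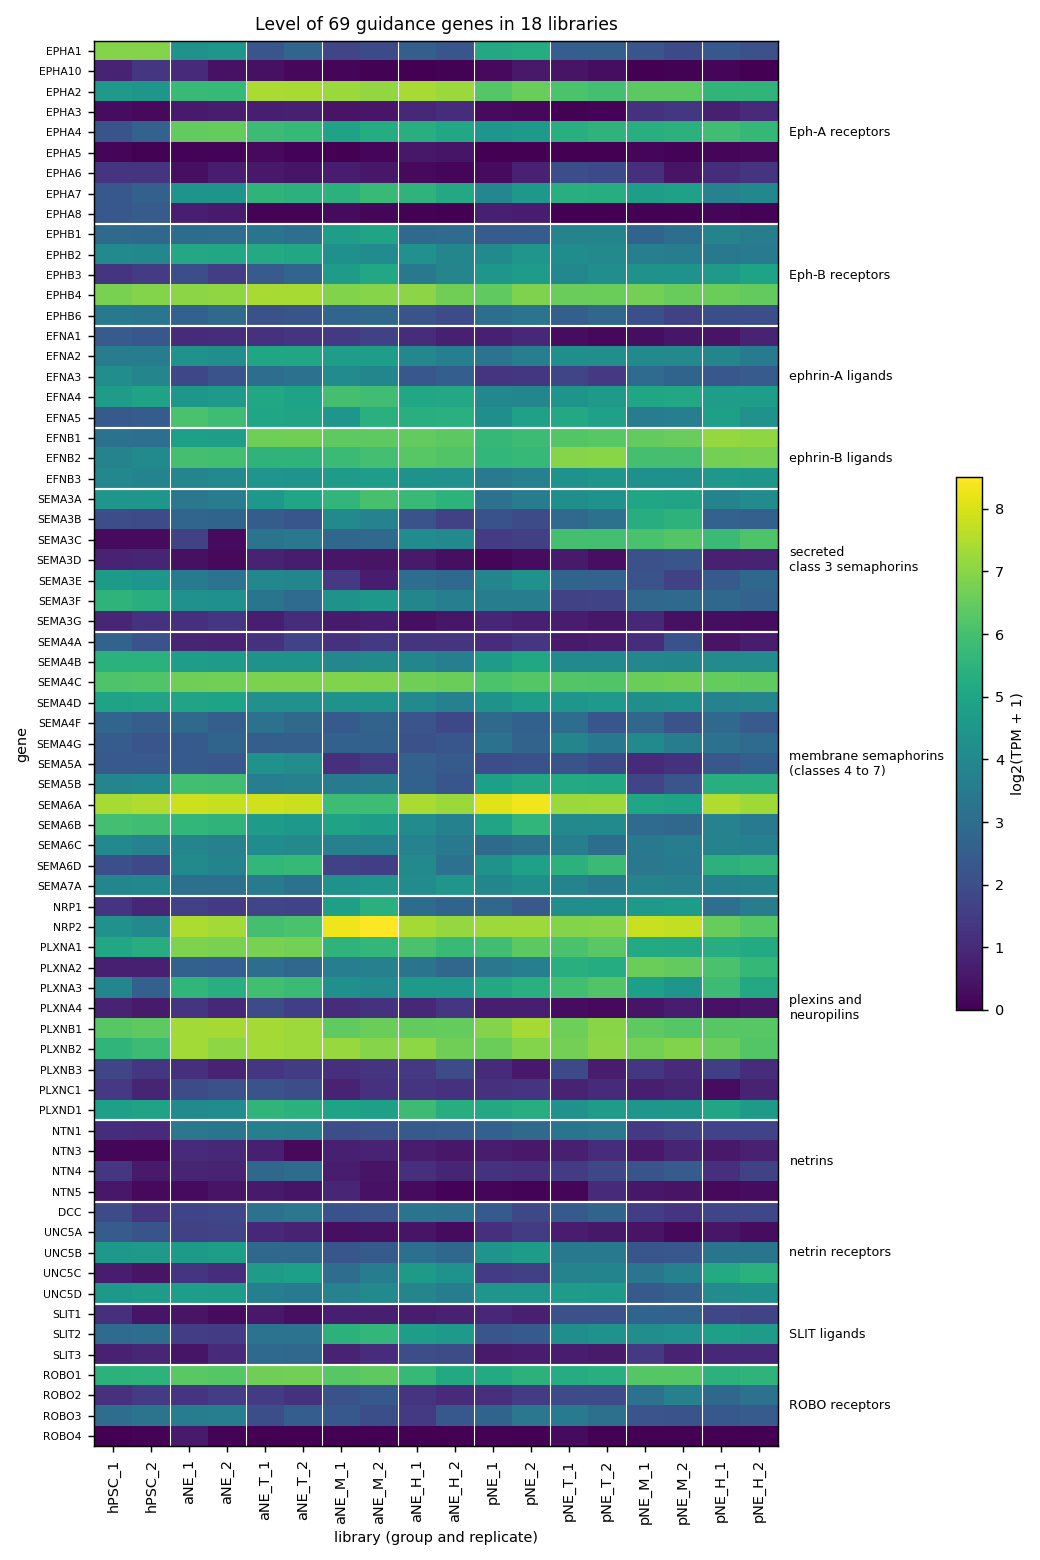
Level of the 69 guidance genes (rows, grouped by class) in the 18 libraries (columns), as log2(TPM + 1), with colour running from dark (0) to yellow. SEMA6A, NRP2, EPHB4, EPHA2, SEMA4C, PLXNB1 and PLXNB2 are among the brightest rows, and replicate columns of 1 group resemble each other.

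The most abundant gene of each class, by the mean over all 18 libraries, showed which parts of the system were present. Among Eph receptors these were EPHA2 at 91.5 TPM and EPHB4 at 115 TPM, and among ephrins EFNA4 at 29.8 TPM and EFNB1 at 73.3 TPM. The membrane semaphorin SEMA6A, a ligand of class A plexins, was the highest of all 69 at 165 TPM, whereas SEMA3A led the secreted semaphorins at 26.2 TPM. The semaphorin and VEGF co-receptor NRP2 led the plexins and neuropilins at 146 TPM. The netrin NTN1 stood at 5.39 TPM and the netrin receptor UNC5D at 16.9 TPM, against 17.1 TPM for SLIT2 and 60.5 TPM for its receptor ROBO1. In the SLIT and netrin systems the summed receptors stood above the summed ligands in every library: ROBO receptors summed to 39.7 to 110 TPM per library and SLIT ligands to 2.67 to 50.2 TPM, and netrin receptors to 19.7 to 71.4 TPM and netrins to 1.83 to 19.1 TPM.

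**Figure D2:**
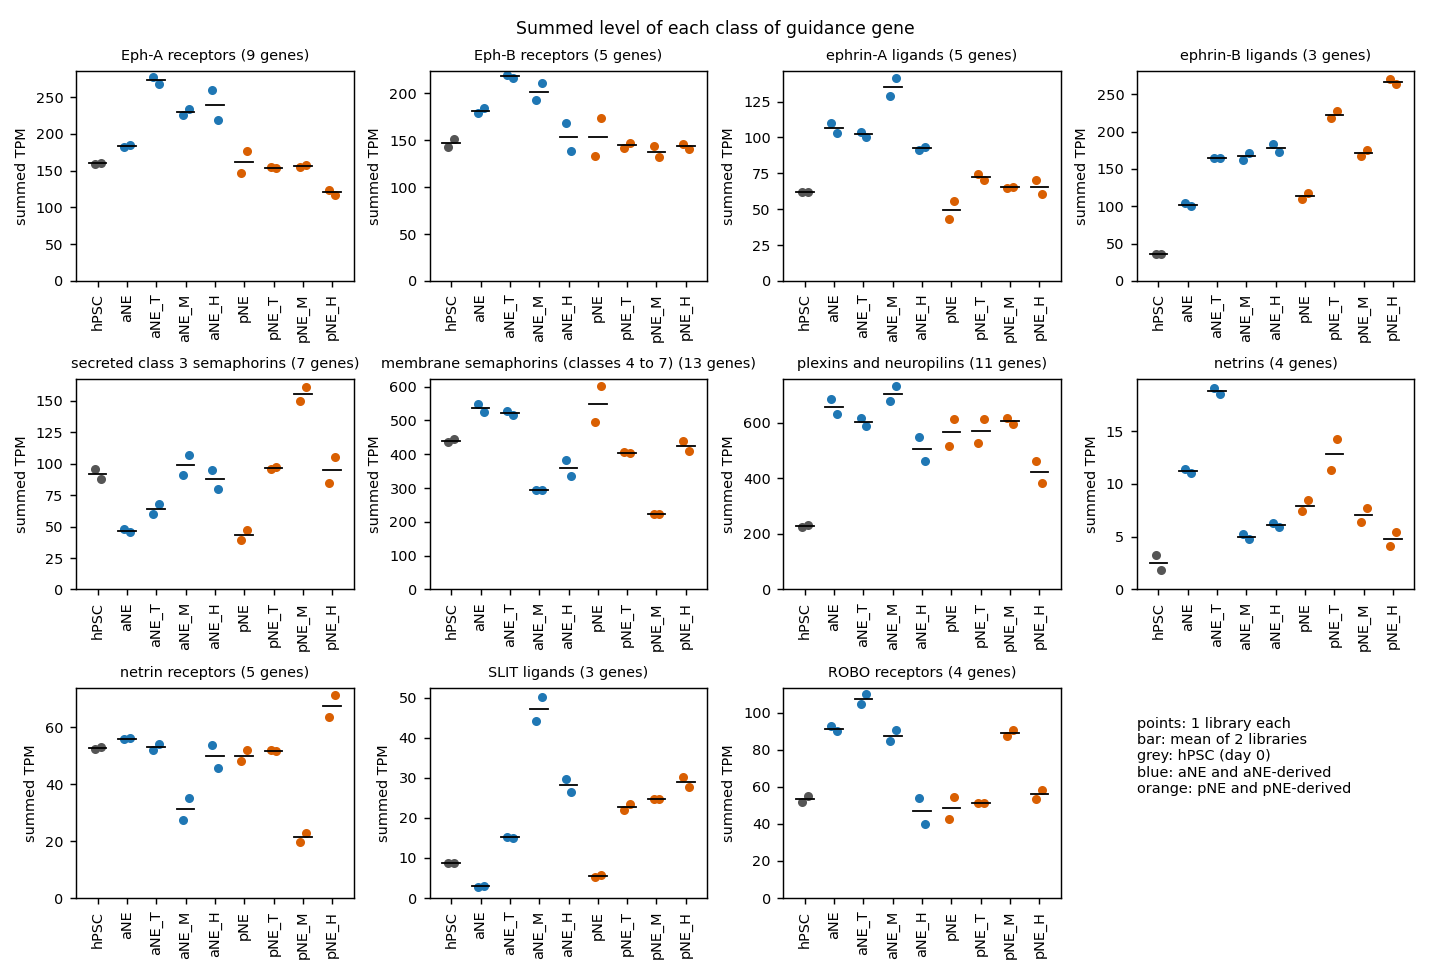
Summed TPM of each class of guidance gene (vertical axis, from 0) by group, with 1 point per library and a bar at the mean of 2 libraries. The ephrin-B sum rises from 35.6 and 36.6 TPM in hPSC to 264 and 270.0 TPM in pNE_H, and the membrane semaphorin sum is lowest in the 2 midbrain medium groups.

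Setting the day-2 populations against hPSC shows which guidance genes change on entry into neural ectoderm. The ephrin-B ligands EFNB1 and EFNB2, EPHA4, NRP2 and the plexins PLXNA2 and PLXNA3 rose in both populations, and EPHA1, EFNA3 and SEMA3F fell. In aNE 23 of 66 genes were called, 15 higher and 8 lower, against 13.5% of all tested genes. In pNE 24 were called, 16 higher and 8 lower, against 12.9%. Both counts include EPHA8, and without EPHA8 and SEMA3D they were 22 and 23 of 64. The median absolute log2 difference was 0.70 in aNE and 0.69 in pNE, beside 0.37 and 0.35 over all tested genes. Both comparisons use the same hPSC libraries, so their values are given side by side and no overlap is read from them.

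Among the receptors, EPHA4, an Eph receptor that binds ephrins of both classes, went from 3.65 and 5.39 TPM in the hPSC libraries to 87.6 and 89.9 TPM in aNE and 21.1 and 22.5 TPM in pNE. The log2 difference from hPSC was 4.04 ± 0.16 (adjusted p = 6.64e-10) in aNE and 2.06 ± 0.16 (adjusted p = 4.20e-07) in pNE. All 4 day-2 libraries lay above both hPSC libraries. NRP2 went from 18.5 and 15.9 TPM to 175 and 160.1 TPM in aNE and 153 and 152 TPM in pNE, log2 differences of 3.21 ± 0.10 (adjusted p = 1.57e-10) and 3.08 ± 0.10 (adjusted p = 1.83e-10). EPHA7 rose by 1.92 and 1.77 in aNE and pNE, and EPHA2 by 1.18 and 1.85. The semaphorin receptors PLXNA1 (1.64 in aNE), PLXNA2 (1.84 and 2.77) and PLXNA3 (2.22 and 2.02) rose as well. PLXNA3 was at 13.8 and 5.11 TPM in the hPSC libraries, the widest gap between replicates among these receptors, and its call in pNE was lost when only the 4 libraries compared were fitted (adjusted p = 0.0782).

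EPHA1, an Eph-A receptor, moved the other way. It stood at 121 and 121 TPM in hPSC, at 19.4 and 21.3 TPM in aNE and at 34 and 37.5 TPM in pNE, and its group means were 2.60 to 4.87 TPM at day 4. No day-2 library reached an hPSC library, with log2 differences of -2.52 ± 0.17 (adjusted p = 1.80e-07) in aNE and -1.74 ± 0.17 (adjusted p = 5.62e-06) in pNE. EPHA8 was at or above 1 TPM only in hPSC, at 4.01 and 4.43 TPM, so it passed the filter only through the group where it was high and its fall carries no weight.

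Ligands changed in both directions. The ephrin-B ligand EFNB1 was at 8.23 and 7.66 TPM in hPSC, 27.1 and 25.4 TPM in aNE and 50.3 and 55.4 TPM in pNE, which are log2 differences of 1.61 ± 0.07 (adjusted p = 3.71e-09) and 2.59 ± 0.07 (adjusted p = 3.75e-11). EFNB2, a ligand shared with vascular development, rose by 2.05 and 1.75. EFNA5, an ephrin-A ligand best known from retinotectal mapping, rose from 4.26 and 4.61 TPM by 3.52 and 2.10. Its relative EFNA3 fell from 17.2 and 13.8 TPM to 2.61 and 3.61 TPM in aNE and 1.44 and 1.62 TPM in pNE, with log2 differences of -2.01 and -2.70. Within the semaphorins, SEMA6D (1.96 and 2.64) and SEMA5B (1.99 and 1.02) rose while the secreted SEMA3F differed by -1.16 and -1.87. The netrin NTN1 rose from 1.15 and 1.04 TPM to 9.35 and 8.98 TPM in aNE and 5.3 and 6.66 TPM in pNE.

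At day 2 the comparison of pNE with aNE asked which guidance genes separate the 2 neural ectoderm populations before they meet a regional medium. Only 5 of 66 genes were called, 3 higher and 2 lower in pNE, which is 7.58% against 3.85% of all tested genes. The Eph-B receptor EPHB3 was at 3.11 and 1.92 TPM in aNE and 21.5 and 25.1 TPM in pNE, and at 1.45 and 1.83 TPM in hPSC. Both pNE libraries lay above both aNE libraries, with a log2 difference of 2.81 ± 0.21 (adjusted p = 1.05e-06), or 7-fold on this scale. EPHA4 was lower in pNE by a log2 difference of -1.98 ± 0.16 (adjusted p = 1.95e-06), with its values as given above. EFNA5 was at 65.6 and 57.4 TPM in aNE and 17.7 and 28.1 TPM in pNE, a log2 difference of -1.42 ± 0.26 (adjusted p = 0.00251). PLXND1, a receptor of the secreted SEMA3E, was at 15.4 and 16.4 TPM in aNE and 34.2 and 38.5 TPM in pNE, a log2 difference of 1.14 ± 0.18 (adjusted p = 0.00073). The neuropilin NRP1 was higher by 1.08 ± 0.23 (adjusted p = 0.00601), at 2.1 and 1.74 TPM in aNE and 6.37 and 4.16 TPM in pNE. The groups did not overlap for any of these 5 genes, but that was a condition for naming them. Many uncalled genes did not overlap either, SLIT1 and EFNA1 among them. Marker lists differed between the same groups, with neurons at 445 and 447 TPM in aNE against 212 and 244 TPM in pNE, neural crest at 38.1 and 30.2 against 13.4 and 18.5 TPM and endothelium at 25.7 and 23.5 against 11.2 and 11.2 TPM, and their part in these differences was not tested. Without pNE replicate 2 the count was 9, and with a pseudocount of 0.1 it was 10. Fitting only the 4 libraries compared left 3 genes called, with EFNA5 at an adjusted p of 0.1 and NRP1 at 0.133, and NRP1 also fell below the threshold without aNE replicate 2 (adjusted p = 0.0572) and without pNE replicate 1 (0.0728).

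At day 4 the origin comparison was made within each medium. The Eph-A receptors summed to 117 to 158 TPM in the 6 pNE-derived libraries and 219 to 278 TPM in the 6 aNE-derived libraries. The 5 ephrin-A ligands summed to 60.5 to 74.7 TPM and 91.5 to 142 TPM, so neither sum overlapped between origins. The sums of all other classes did overlap. Both differences were present at day 2. The Eph-A sum was then 183 and 185 TPM in aNE and 146 and 176 TPM in pNE, and the ephrin-A sum 110 and 103 TPM against 43.2 and 55.9 TPM. In aNE-derived cells the Eph-A sum is largely EPHA2, which had group means of 144 to 169 TPM there and 46.3 to 81.9 TPM in pNE-derived cells. In pNE_H the group mean of EPHA4 (54.7 TPM) stood above that of EPHA2 (46.3 TPM). Between origins in hindbrain medium EPHA4 differed by 0.60, under the size asked of a call, and EPHA7 was lower from pNE (-1.44). EPHA6 was called higher in pNE_T (1.45) and pNE_H (1.05), at low group means of 2.96 and 1.33 TPM. Of the 5 ephrin-A ligands, EFNA1 and EFNA3 were called lower in forebrain medium and EFNA1, EFNA3 and EFNA5 in midbrain medium. In forebrain medium 23 genes were called, 11 higher and 12 lower in pNE-derived cells, against 7.77% of all tested genes. In midbrain medium 18 were called (17 without SEMA3D), 9 in each direction, against 5.74%, and in hindbrain medium 13, with 8 higher and 5 lower, against 6.83%. Median absolute log2 differences were 0.66, 0.54 and 0.49 for the guidance genes in the 3 media, beside 0.23, 0.21 and 0.24 over all tested genes. Among genes with a mean of at least 5 TPM, 15, 13 and 9 of 47 guidance genes were called in the 3 media, which is 31.9%, 27.7% and 19.1%, beside 7.39%, 5.11% and 6.42% of 11059 genes.

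A set of 4 genes was called in the same direction in all 3 media, 6.06% of the 66 against 1.43% of all tested genes. SEMA3C, PLXNA2 and SLIT1 were higher in pNE-derived cells and SEMA3F was lower. The promoters of these 4 genes are shown because their origin difference was called in each medium. Each line gives the 250 bases before the RefSeq start of the gene on GRCh38.p14, 5′ to 3′ on the strand of the gene. PLXNA2 lies at chr1:208244385-208244634 (minus strand), SEMA3C at chr7:80922390-80922639 (minus strand), SLIT1 at chr10:97185960-97186209 (minus strand) and SEMA3F at chr3:50154808-50155057 (plus strand). Capitals mark matches on either strand to 4 motifs: the retinoid receptor motif AGGTCA, the TCF/LEF core CTTTGA, the GC box GGGCGG and the CCAAT box.
PLXNA2: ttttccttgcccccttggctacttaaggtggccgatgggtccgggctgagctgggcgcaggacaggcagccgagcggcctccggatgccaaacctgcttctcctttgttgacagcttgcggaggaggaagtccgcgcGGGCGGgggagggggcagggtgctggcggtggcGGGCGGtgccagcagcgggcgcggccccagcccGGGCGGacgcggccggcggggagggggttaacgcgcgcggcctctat
SEMA3C: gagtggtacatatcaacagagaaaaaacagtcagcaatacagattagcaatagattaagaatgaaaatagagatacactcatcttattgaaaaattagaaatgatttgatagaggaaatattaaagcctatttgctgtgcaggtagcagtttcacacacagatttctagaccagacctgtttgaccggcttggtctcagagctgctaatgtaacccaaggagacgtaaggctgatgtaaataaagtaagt
SLIT1: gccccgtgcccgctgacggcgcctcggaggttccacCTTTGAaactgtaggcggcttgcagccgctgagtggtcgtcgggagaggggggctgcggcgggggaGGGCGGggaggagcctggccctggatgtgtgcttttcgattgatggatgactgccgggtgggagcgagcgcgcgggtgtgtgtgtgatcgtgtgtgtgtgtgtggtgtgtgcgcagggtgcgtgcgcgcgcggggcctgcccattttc
SEMA3F: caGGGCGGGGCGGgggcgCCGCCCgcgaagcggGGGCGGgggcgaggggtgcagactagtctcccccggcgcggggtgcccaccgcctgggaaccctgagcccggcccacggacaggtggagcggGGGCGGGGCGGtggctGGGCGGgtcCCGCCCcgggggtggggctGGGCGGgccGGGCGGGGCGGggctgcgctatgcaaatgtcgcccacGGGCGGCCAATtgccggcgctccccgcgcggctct
The SEMA3F window held 12 GC boxes, several of them overlapping, and 1 CCAAT box that adjoins a GC box, with 82% G or C. The PLXNA2 window held 3 GC boxes at 72.4% G or C, and SLIT1 held 1 TCF/LEF core and 1 GC box at 68.4%. SEMA3C had 36.4% G or C and no match to any of the 4 motifs, which says only that these letters are not in this window. Promoters were matched for 59 of the 69 genes. GC boxes were in 43 of the 59 (72.9%) beside 42.6% of 35116 RefSeq promoters, the retinoid receptor motif in 6 (10.2% beside 12.1%), the TCF/LEF core in 5 (8.47% beside 11.2%) and the CCAAT box in 20 (33.9% beside 32%). The 59 count 1 promoter per gene, and the 35116 count every promoter, of expressed genes or not. Their G and C content was not compared, so no enrichment is read from these shares.

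SEMA3C, a secreted semaphorin that signals through neuropilins with class A plexins and plexin D1, was low at every earlier stage. It stood at 0.197 and 0.187 TPM in hPSC, at 2.1 and 0.192 TPM in the 2 aNE libraries, which differed widely from each other, and at 1.84 and 2.08 TPM in pNE. At day 4 the aNE-derived libraries held 8.77 and 9.66 TPM in forebrain, 6.19 and 6.43 TPM in midbrain and 16.7 and 15.3 TPM in hindbrain medium. The pNE-derived libraries held 62.6 and 62.1 TPM in forebrain, 65.5 and 74 TPM in midbrain and 55 and 71.3 TPM in hindbrain medium. All 6 pNE-derived libraries therefore lay above all 6 aNE-derived libraries. The log2 differences between origins were 2.63 ± 0.30 (adjusted p = 2.69e-05), 3.27 ± 0.30 (adjusted p = 5.30e-06) and 1.91 ± 0.30 (adjusted p = 0.000487).

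PLXNA2, a class A plexin and so part of the receptor for secreted semaphorins, followed the same order. The aNE-derived libraries held 7.27 and 6.35 TPM in forebrain, 11.3 and 11.9 TPM in midbrain and 8.62 and 5.95 TPM in hindbrain medium. In pNE-derived cells it was at 38.9 and 37.9 TPM in forebrain, 96.2 and 86.2 TPM in midbrain and 65.3 and 49.5 TPM in hindbrain medium. Again no library of one origin reached a library of the other. The log2 differences were 2.34 ± 0.17 (adjusted p = 2.76e-07), 2.87 ± 0.17 (adjusted p = 5.67e-08) and 2.82 ± 0.17 (adjusted p = 5.81e-08). At day 2 it was at 5.19 and 4.77 TPM in aNE and 9.34 and 11.6 TPM in pNE, a log2 difference of 0.93 that was under the size asked of a call.

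SLIT1, a repellent ligand of ROBO receptors, was higher in pNE-derived cells at a lower level. Its values were 3.27 and 3.3 TPM in pNE_T, 5.75 and 5.48 TPM in pNE_M and 2.48 and 2.34 TPM in pNE_H, and the 6 aNE-derived libraries were at 0.276 to 0.71 TPM, below all of these. The log2 differences were 1.63, 2.01 and 1.06. SLIT1 shares its strand with the readthrough gene ARHGAP19-SLIT1, so its reads may have been divided between 2 rows of the table. The secreted semaphorin SEMA3F, a ligand of NRP2, was at 8.89 and 6.88 TPM in aNE_T, 19.4 and 22.2 TPM in aNE_M and 13.9 and 11.7 TPM in aNE_H. From pNE it was at 2.12 and 2.36 TPM in pNE_T, 6.06 and 6.43 TPM in pNE_M and 6.15 and 5.44 TPM in pNE_H. Within each medium the 2 origins did not overlap, with log2 differences of -1.45, -1.59 and -1.02. The hindbrain difference lies near the size asked of a call, and was -0.97 under median-ratio scaling, -0.91 without aNE_H replicate 1 and -0.95 without pNE_H replicate 2. The SLIT1 difference in hindbrain medium was 0.996 without aNE_H replicate 1. Without that library, SEMA3C and PLXNA2 alone of the 4 were called in all 3 media.

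**Figure D3:**
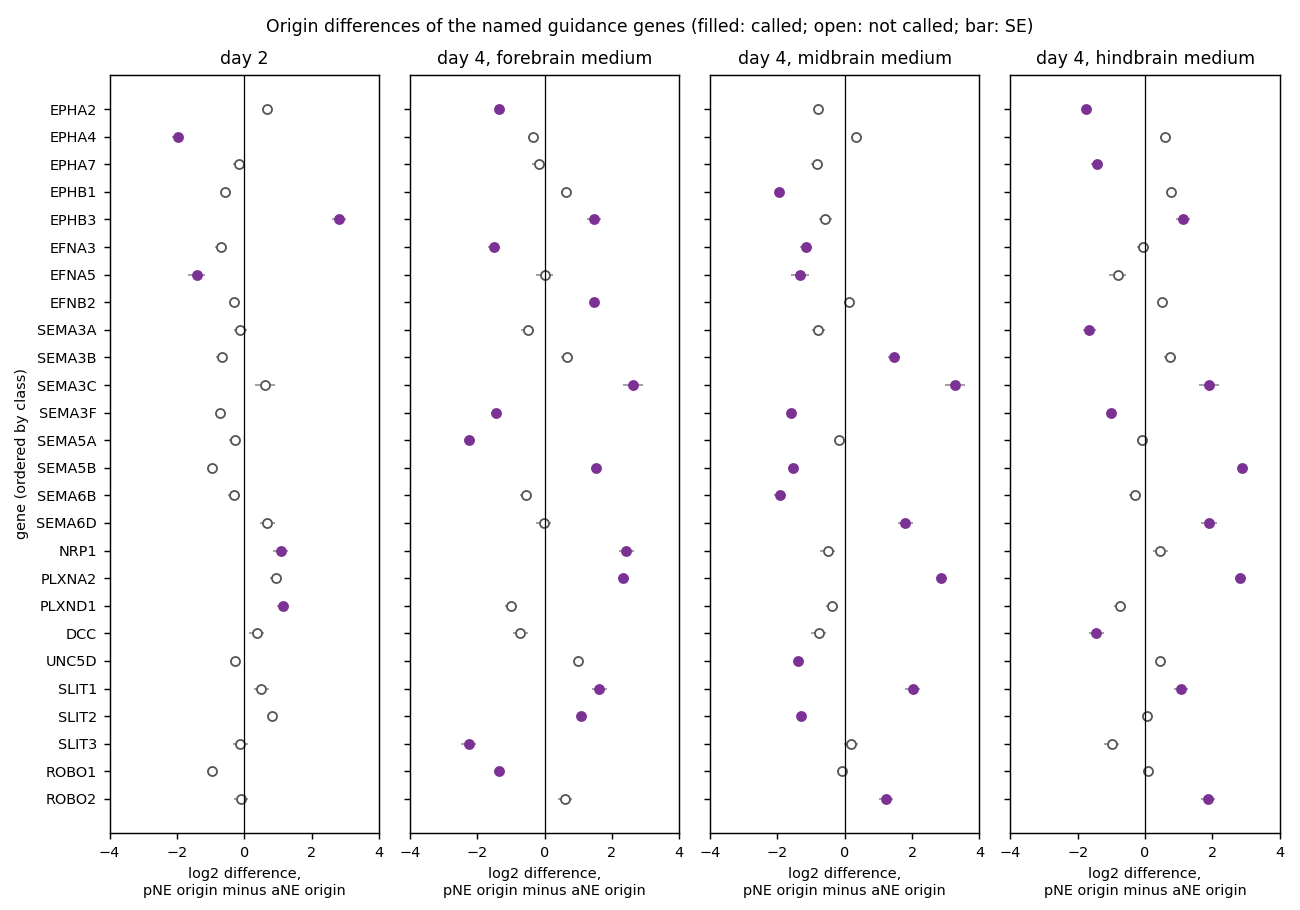
Log2 difference between pNE and aNE origin (horizontal axis, on log2(TPM + 1)) for the 26 guidance genes named in any of the 4 origin comparisons, at day 2 and in the 3 day-4 media. Filled points are called, open points are not, and bars are limma's SE. SEMA3C and PLXNA2 lie to the right in all 3 media, and SEMA5B lies to the left only in midbrain medium and day 2.

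Other genes differed by origin in some media, or in opposite directions. Among Eph receptors, EPHA2 was lower in pNE-derived cells in forebrain medium (68.2 and 61.9 TPM against 172 and 166 TPM) and in hindbrain medium (46.3 and 46.3 against 169 and 147 TPM). These are log2 differences of -1.36 ± 0.09 (adjusted p = 2.15e-07) and -1.75 ± 0.09 (adjusted p = 2.57e-08), and in midbrain medium the difference was -0.81, short of the size asked of a call. EPHB3 was higher in pNE-derived cells in forebrain (1.46) and hindbrain medium (1.13). EPHB1 was at 25.5 and 30.3 TPM in aNE_M and 5.62 and 7.51 TPM in pNE_M, a log2 difference of -1.94 ± 0.14 (adjusted p = 4.75e-07). Its gene span overlaps KY on the other strand, and whether that affects its value was not tested. EPHA7 was at 45.3 and 33.7 TPM in aNE_H and 12.8 and 14.8 TPM in pNE_H. Of their ligands, EFNB2 reached 124 and 127 TPM in pNE_T against 45.2 and 45.4 TPM in aNE_T, a log2 difference of 1.45 ± 0.08 (adjusted p = 4.43e-08). EFNA3 was lower in pNE_T (-1.51), and EFNA5 was lower in pNE_M, where the 2 aNE_M libraries spread widely at 21.2 and 40.8 TPM. Without aNE_M replicate 2 that EFNA5 difference was -0.87 and no longer called.

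The membrane semaphorin SEMA5B changed sign between media. It was at 11.3 and 11.9 TPM in aNE_T and 36 and 34.5 TPM in pNE_T, and at 5.19 and 3.88 TPM in aNE_H and 40.5 and 39.1 TPM in pNE_H. In midbrain medium the order was the opposite, at 10.5 and 11 TPM in aNE_M and 2.46 and 3.78 TPM in pNE_M. No pair of groups overlapped, and the log2 differences were 1.52 ± 0.15 (adjusted p = 7.11e-06), -1.54 ± 0.15 (adjusted p = 9.03e-06) and 2.89 ± 0.15 (adjusted p = 2.05e-08). The ligand SLIT2 was likewise higher in pNE_T than in aNE_T (1.08) and lower in pNE_M than in aNE_M (-1.30), and NTN4 was lower in pNE_T (-1.26) and higher in pNE_M (1.78). SEMA6D, a class 6 semaphorin, was higher in pNE-derived cells in midbrain (1.80) and hindbrain medium (1.89), and SEMA3B was higher in midbrain medium (1.46).

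SEMA5A and SLIT3 had their highest values in aNE_T. SEMA5A, a membrane semaphorin with thrombospondin repeats, was at 19.2 and 17.3 TPM in aNE_T, 3.49 and 2.73 TPM in pNE_T and at or below 5.06 TPM in every library outside aNE_T. SLIT3 was at 6.48 and 6.4 TPM in aNE_T against 0.601 and 0.538 TPM in pNE_T, and log2 differences were -2.23 ± 0.16 (adjusted p = 3.47e-07) for SEMA5A and -2.25 ± 0.22 (adjusted p = 6.45e-06) for SLIT3. NRP1 was higher in pNE_T (2.43) and the SLIT receptor ROBO1 lower (-1.36). ROBO2 was higher in pNE_H, at 6.4 and 7.97 TPM against 1.42 and 1.09 TPM in aNE_H. In hindbrain medium the netrin receptor DCC (-1.45) and the repellent SEMA3A (-1.66) were lower in pNE-derived cells.

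Markers of other cell types also differed by origin, and their part in these differences was not tested. The floor plate list summed to 60.3 and 62.1 TPM in pNE_T against 6.04 and 6.45 TPM in aNE_T, of which SPON1 made up most at 52.3 and 51.7 TPM in pNE_T, with FOXA2 at 4.36 and 6.01 TPM and SHH at 2.01 and 2.39 TPM and FERD3L listed at 0. The endothelial gene CDH5 was at 22.8 and 23.3 TPM in pNE_T and 4.28 and 3.52 TPM in aNE_T, with PECAM1 at 0.121 and 0.0412 TPM in pNE_T, while the list of 6 summed to 43.6 and 46.3 against 35 and 32.5 TPM. The neuronal list was lower in pNE-derived cells in each medium, at 62.7 and 79.3 against 214 and 196 TPM in forebrain, 275 and 257 against 606 and 565 TPM in midbrain and 84 and 72 against 211 and 192 TPM in hindbrain medium. The neural progenitor list was at 1089 and 1107 TPM in pNE_T against 1551 and 1521 TPM in aNE_T. In hindbrain medium it was at 497 and 490 TPM in pNE_H against 597 and 537 TPM in aNE_H. In midbrain medium the origins overlapped, at 491 and 450 TPM in pNE_M and 477 and 524 TPM in aNE_M. The neural crest gene SOX10 was at 16.2 and 12.7 TPM in pNE_H and 4.96 and 3.9 TPM in aNE_H, with list sums of 77.1 and 86.4 against 79.4 and 76.6 TPM. When only the 4 libraries of a comparison were fitted, calls were lost for SEMA5B (adjusted p = 0.0608) and EFNA5 (0.161) in midbrain medium, and for SEMA6D (0.0791), EPHA7 (0.0565), EPHB3 (0.092) and SEMA3F (0.0634) in hindbrain medium. EPHB3 in hindbrain medium also fell under the size asked of a call without aNE_H replicate 1 (0.91) and without pNE_H replicate 2 (0.99).

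From day 2 to day 4 each population changed medium, and the comparison asked how each population's guidance genes moved. Day and plating density changed together with the medium, so their parts cannot be told apart here. The netrin receptor UNC5C, SLIT2 and SEMA3C rose in every medium from both origins, and EPHA1 and UNC5B fell. In aNE-derived cells 21 genes were called in forebrain medium (14 higher, 7 lower, against 9.03% of all tested genes), 31 in midbrain medium (16 higher, 15 lower, against 12%) and 21 in hindbrain medium (12 higher, 9 lower, against 10.1%). In pNE-derived cells the counts were 16 (11 higher, 5 lower, against 10.2%), 25 (14 higher, 11 lower, against 12.7%, with 24 called without SEMA3D) and 16 (10 higher, 6 lower, against 12.3%). The 2 origins share no library in these comparisons. The same call was made from both origins for 8 genes in forebrain medium (12.1% of 66 against 3.79% of all tested genes), 17 in midbrain medium (25.8% against 6.24%) and 7 in hindbrain medium (10.6% against 4.98%). The 17 in midbrain medium were EFNA3, EFNA4, NRP1, PLXNA2, SEMA3A, SEMA3B, SEMA3C, SLIT2 and UNC5C, which rose, and EPHA1, NTN1, SEMA3E, SEMA5B, SEMA6A, SEMA6D, UNC5A and UNC5B, which fell.

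UNC5C, which mediates repulsion by netrins, was at 1.46 and 1.15 TPM in aNE and 1.81 and 2.05 TPM in pNE. At day 4 it reached 24.8 and 27.1 TPM in aNE_T, 7.3 and 11.3 TPM in aNE_M and 23.6 and 19.9 TPM in aNE_H, with 13 and 13.2 TPM in pNE_T, 9.21 and 12.3 TPM in pNE_M and 35.6 and 41.7 TPM in pNE_H. Every day-4 library lay above every day-2 library, and log2 changes ran from 1.99 in pNE_M to 3.76 in pNE_H. Its relative UNC5B fell from 23.9 and 25.4 TPM in aNE and 20.3 and 24.3 TPM in pNE, by log2 changes between -1.10 in pNE_T and -2.33 in aNE_M. The pNE_T change of UNC5B was -0.97 without pNE replicate 2. UNC5B stood above UNC5C in all 4 day-2 libraries, and UNC5C above UNC5B in all 12 day-4 libraries.

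SLIT2 rose from 1.9 and 1.85 TPM in aNE to 8.35 and 8.39 TPM in aNE_T, 42.8 and 48.4 TPM in aNE_M and 26.3 and 23 TPM in aNE_H. The log2 changes were 1.70 ± 0.11 (adjusted p = 1.27e-07), 4.02 ± 0.11 (adjusted p = 2.63e-11) and 3.16 ± 0.11 (adjusted p = 4.09e-10). From pNE at 3.78 and 4.36 TPM, it rose to 18 and 19.7 TPM in pNE_T, 17.4 and 18.5 TPM in pNE_M and 26.7 and 24.5 TPM in pNE_H. In hPSC it was at 6.83 and 7.45 TPM, above both day-2 groups. SEMA3C rose by log2 changes of 1.93 to 3.14 from aNE and of 4.42 to 4.58 from pNE, and its rise in aNE_T was not called when the 4 libraries alone were fitted (adjusted p = 0.0533). The ephrin EFNB1 was called in all 3 media from aNE, at 98.7 and 99.4 TPM in aNE_T, 84 and 83.8 TPM in aNE_M and 87.6 and 81.1 TPM in aNE_H, and in hindbrain medium from pNE, at 143 and 135 TPM.

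**Figure D4:**
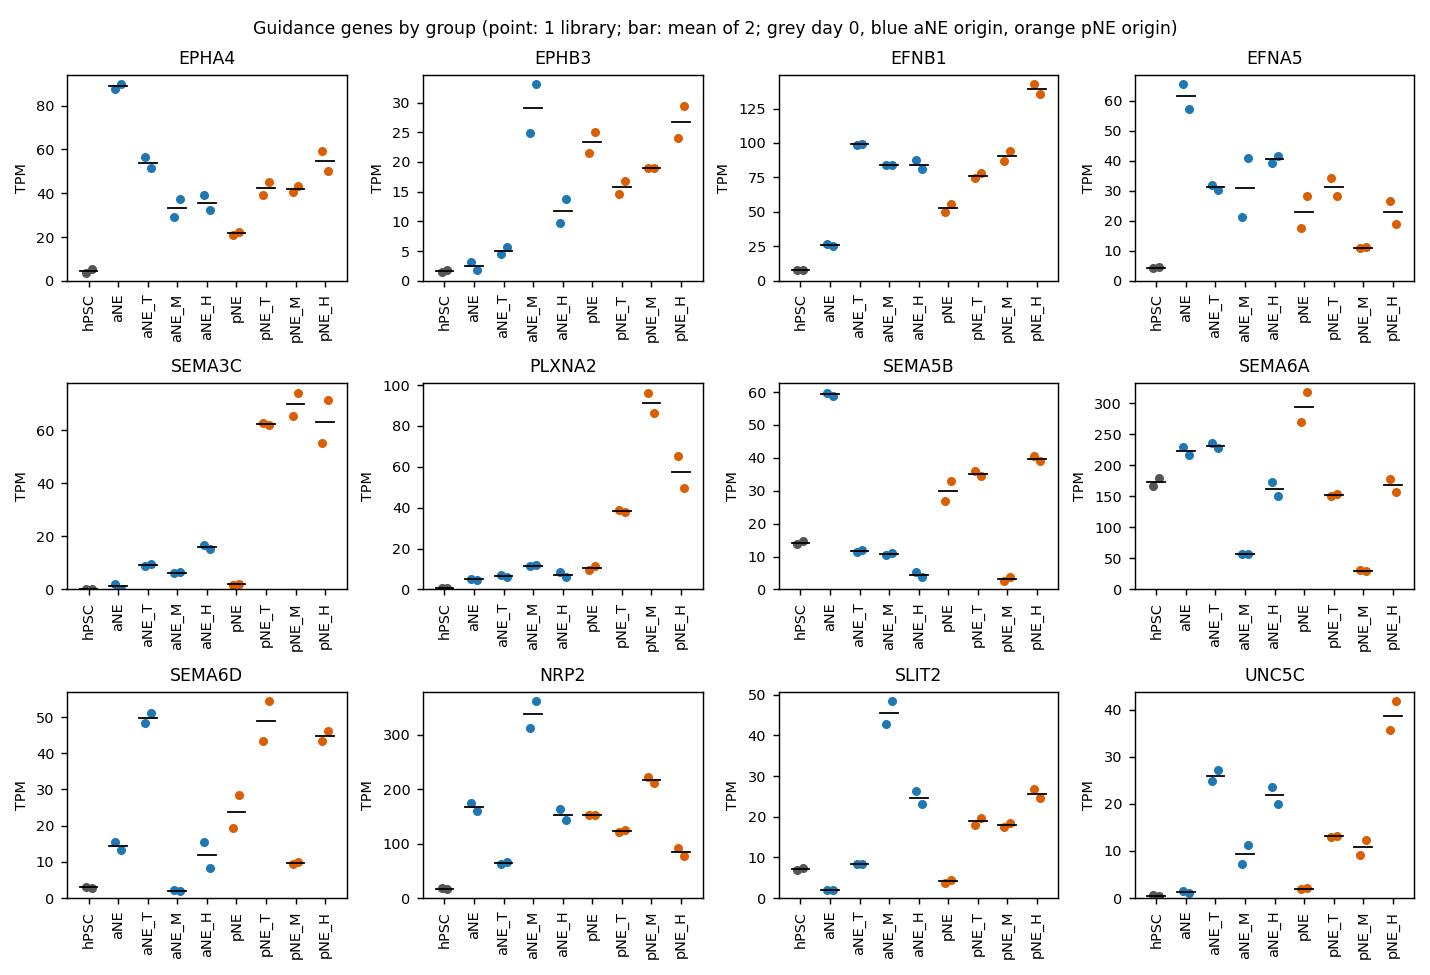
TPM of 12 guidance genes by group (vertical axes start at 0), with 1 point per library and a bar at the mean of 2. SEMA3C and PLXNA2 stand highest in the pNE-derived day-4 groups, EPHB3 is low in hPSC and aNE, SEMA6A is lowest in the midbrain medium groups, and SLIT2 and NRP2 peak in aNE_M.

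The change to day 4 in midbrain medium gave the largest number of called guidance genes from either origin. It also gave the largest share called among all tested genes, 12% from aNE and 12.7% from pNE. In aNE_M, NRP1 rose from 2.1 and 1.74 TPM to 27.6 and 41.5 TPM, a log2 change of 3.58 ± 0.23 (adjusted p = 6.09e-08), and EPHB3 rose to 24.9 and 33.1 TPM, a change of 3.10 ± 0.21 (adjusted p = 1.08e-07). SEMA3A, the classic secreted repellent that binds NRP1, rose to 47.1 and 64.1 TPM from 9.3 and 11.2 TPM in aNE. In pNE_M the largest rises after SEMA3C were those of SEMA3B, from 3.46 and 2.96 TPM to 38.2 and 43.8 TPM, a log2 change of 3.32 ± 0.17 (adjusted p = 1.15e-08), and of PLXNA2, a change of 3.01. SEMA6A fell most in pNE_M, from 269 and 318 TPM to 31 and 29.9 TPM, a log2 change of -3.22 ± 0.09 (adjusted p = 3.50e-11), and from 229 and 216 TPM in aNE to 56.6 and 57.7 TPM in aNE_M. SEMA5B fell in aNE_T (-2.26), aNE_M (-2.35), aNE_H (-3.46) and pNE_M (-2.92), and was at 27 to 40.5 TPM in the pNE, pNE_T and pNE_H libraries. EPHA4 was called in opposite directions in hindbrain medium, with a change of -1.30 from aNE and 1.29 from pNE.

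At day 4 the media were also compared with each other within each origin, which asks what the medium changes when origin and plating density are held the same. Midbrain against forebrain medium gave 21 called genes in aNE-derived cells (9 higher, 12 lower, against 10.1% of all tested genes) and 20 in pNE-derived cells (7 higher, 13 lower, against 8.6%, with 19 called without SEMA3D). Hindbrain against forebrain medium gave 14 in aNE-derived cells (4 higher, 10 lower, against 6.6%) and 5 in pNE-derived cells (3 higher, 2 lower, against 5.03%), the last a share of 7.58% that lay near that of all genes. The count of 14 was 9 without aNE_H replicate 2. In midbrain medium 8 genes were called in the same direction from both origins, 12.1% of the 66 against 3.75% of all tested genes.

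These 8 were the ligands SEMA3B and SEMA3F, higher in midbrain medium, and DCC, NTN1, PLXNA1, PLXNA3, SEMA6A and SEMA6D, lower in it. SEMA6D was at 48.3 and 51 TPM in aNE_T and 2.18 and 1.96 TPM in aNE_M, and at 43.5 and 54.4 TPM in pNE_T and 9.28 and 10.1 TPM in pNE_M. The forebrain libraries lay above the midbrain libraries in both origins, with log2 differences of -4.04 ± 0.23 (adjusted p = 2.13e-08) and -2.22 ± 0.23 (adjusted p = 8.59e-06). SEMA6A differed by -2.00 ± 0.09 (adjusted p = 2.29e-09) and -2.28 ± 0.09 (adjusted p = 1.04e-09), from 235 and 228 TPM in aNE_T and 150.0 and 154 TPM in pNE_T. The 4 class A plexins did not move together. PLXNA1 was at -1.16 and -1.04 and PLXNA3 at -1.67 and -1.43, whereas PLXNA2 was at 0.70 (under the size asked of a call) and 1.22, and PLXNA4, not called in either origin, at -0.61 and 0.31. The ligand NTN1 and its receptor DCC were lower together: NTN1 differed by -1.55 and -1.79, and DCC by -1.07 and -1.13. SEMA3B was higher by 1.55 and 2.34 and SEMA3F by 1.30 and 1.16.

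**Figure D5:**
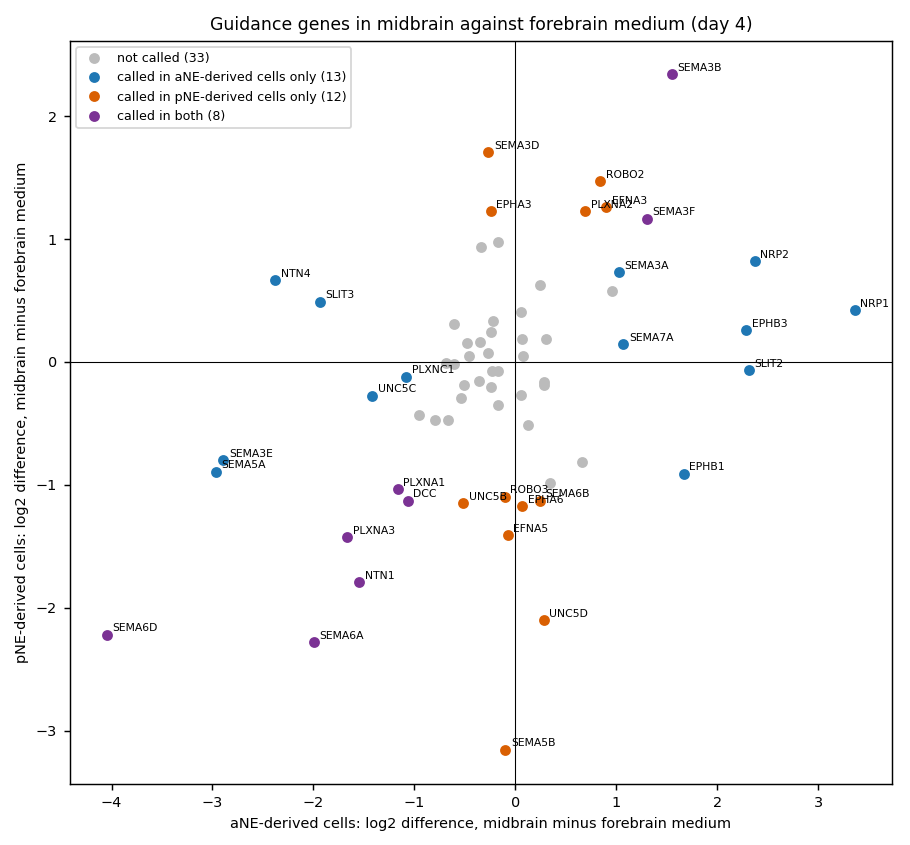
Log2 difference between midbrain and forebrain medium at day 4 for the 66 tested guidance genes, in aNE-derived cells (horizontal axis) and pNE-derived cells (vertical axis). Purple points are the 8 genes called in both, blue the 13 called only in aNE-derived cells, orange the 12 called only in pNE-derived cells and grey the 33 others. SEMA6D and SEMA6A lie far down on both axes, and SEMA3B high on both.

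Several genes were called in midbrain medium from 1 origin. The neuropilins NRP1 and NRP2 were higher in aNE_M than in aNE_T, NRP2 at 313 and 362 TPM against 62.7 and 65.9 TPM, log2 differences of 3.36 ± 0.23 (adjusted p = 1.20e-07) and 2.37 ± 0.10 (adjusted p = 1.95e-09). SLIT2 (2.31), EPHB3 (2.29) and EPHB1 (1.67) were also higher in aNE_M, and SEMA5A (-2.97), SEMA3E (-2.89), NTN4 (-2.38) and SLIT3 (-1.94) lower. In pNE-derived cells SEMA5B differed by -3.16 ± 0.15 (adjusted p = 6.03e-09). The netrin receptor UNC5D was at 24.3 and 22.7 TPM in pNE_T and 4.34 and 5.09 TPM in pNE_M, a difference of -2.10 ± 0.12 (adjusted p = 4.07e-08). ROBO2 (1.47), EFNA3 (1.26) and PLXNA2 (1.22) were higher in pNE_M. A call in 1 origin does not show that the origins differ, and the difference between these media differences was not tested. The mesendoderm list, given above for both midbrain medium groups, stood at 0.87 and 0.83 TPM in aNE_T and 5.33 and 5.93 TPM in pNE_T, and the neuronal list at 565 and 606 TPM in aNE_M against 196 and 214 TPM in aNE_T, and at 257 and 275 TPM in pNE_M against 62.7 and 79.3 TPM in pNE_T. Their part in these differences was not tested.

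In hindbrain medium, NTN1 was lower than in forebrain medium from both origins, at 4.25 and 4.54 TPM in aNE_H against 11.8 and 10.8 TPM in aNE_T and at 2.28 and 2.27 TPM in pNE_H against 8.78 and 9.52 TPM in pNE_T. The groups did not overlap, with log2 differences of -1.19 ± 0.14 (adjusted p = 3.18e-05) and -1.63 ± 0.14 (adjusted p = 2.94e-06). The first of these was -0.99 under quantile normalization. SEMA6D (-2.04), SEMA5A (-1.76), NTN4 (-1.90) and ROBO1 (-1.26) were lower in aNE_H, and SLIT2 (1.45) and NRP2 (1.24) were higher. From pNE, UNC5C was higher in hindbrain medium by 1.49 ± 0.19 (adjusted p = 0.000114) and EPHA7 lower by a difference of -1.43 ± 0.18 (adjusted p = 0.000108), with ROBO2 (1.06) and SEMA3F (1.07) completing the 5. Fitting the 4 libraries alone left 3 of the 5 called, and the calls of ROBO1 in aNE_H (adjusted p = 0.0507) and of SEMA3F (0.0607) and ROBO2 (0.0749) in pNE_H were lost. Differences also fell under the size asked of a call for ROBO1 without aNE_H replicate 2 (-0.99), SEMA3F without pNE_H replicate 1 (0.99) and ROBO2 without pNE_H replicate 2 (0.92).

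Whether a population's change from day 2 to day 4 differed between the origins was tested by an interaction, the change of pNE-derived cells minus that of aNE-derived cells. Plating density went from 37500 to 75000 cells per cm2 for aNE and to 150000 for pNE, so an interaction cannot tell origin from density. It was called for 24 guidance genes in forebrain medium (14 higher, 10 lower, against 7.14% of all tested genes), 22 in midbrain medium (10 higher, 12 lower, against 7.02%, with 21 called without SEMA3D) and 16 in hindbrain medium (8 higher, 8 lower, against 7.83%). EPHA4, whose day-2 values are given above, was among them. In midbrain medium it went to 29.1 and 37.4 TPM in aNE_M and 40.5 and 43.5 TPM in pNE_M, and in hindbrain medium to 39 and 32.4 TPM in aNE_H and 59.2 and 50.3 TPM in pNE_H. The difference present at day 2 was no longer called at day 4, and the interactions were 2.32 ± 0.22 (adjusted p = 1.01e-05) and 2.58 ± 0.22 (adjusted p = 4.00e-06). EPHA2 rose from 53.2 and 51.4 TPM in aNE to 169 and 147 TPM in aNE_H, whereas it was at 75.8 and 92.6 TPM in pNE and 46.3 and 46.3 TPM in pNE_H, an interaction of -2.42 ± 0.13 (adjusted p = 8.84e-08). The interactions of SEMA3C in forebrain (2.01) and midbrain medium (2.65) start from day-2 values near or below 2 TPM. Adding 0.1 TPM in place of 1 before taking logs ended both calls (adjusted p = 0.388 and 0.141), and the first was also lost when only the 8 libraries involved were fitted (adjusted p = 0.0909).

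Other genes of the guidance pathway were taken from 2 lists that hold none of the 69 genes. Of 19 further ligands and receptors 17 were tested, and 2 to 7 were called per comparison, 11.8% to 41.2% beside 3.85% to 13.5% of all tested genes. Of 40 intracellular effectors 39 were tested, and 2 to 9 were called, 5.13% to 23.1% beside the same range. In several comparisons the share of effectors called lay below that of all genes. Between origins in hindbrain medium 2 were called, 5.13% beside 6.83%. The share was also below that of all genes in aNE_T against aNE (9.03%), where DPYSL3, RND1 and MICAL2 were called. In the forebrain interaction (7.14%), ABLIM1 and RND3 were the effectors called, again a lower share. FLRT3, a membrane protein that binds UNC5 and ROBO receptors, rose from 0.482 and 0.274 TPM in hPSC to 11.4 and 12.3 TPM in aNE and 14.1 and 11.5 TPM in pNE, and reached 111 and 126 TPM in pNE_H. Its difference between the origins was 2.23 ± 0.12 (adjusted p = 3.22e-08) in hindbrain medium and -2.06 ± 0.12 (adjusted p = 7.77e-08) in midbrain medium, so that its order was reversed between those media. DPYSL3, a collapsin response mediator that acts downstream of semaphorins, was lower in pNE than in aNE by a log2 difference of -1.31 ± 0.12 (adjusted p = 9.53e-06), and lower in pNE_T than in aNE_T (-1.90). RGMA, a ligand of the netrin receptor relative neogenin, was at 178 and 173 TPM in aNE and 59.5 and 74.2 TPM in pNE, a log2 difference of -1.39 ± 0.13 (adjusted p = 9.10e-06). In the same comparison 2 of 17 further ligands and receptors and 5 of 39 effectors were called, shares of 11.8% and 12.8% beside the 3.85% of all genes.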

How the data were processed

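Poly-T selected RNA was sequenced from 18 libraries. The authors deposited 1 table of TPM with 37550 rows, of which 7898 carry a transcript identifier in place of a gene name. Per the submitters' processing notes, bcl2fastq, FastQC, Trim Galore, kallisto and deepTools were used with hg38; versions, annotation and strand setting are not given in the sources used here. TPM divides each library by its own total, so a rise in a few abundant genes lowers all others.

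Rows that reached 1 TPM in 2 or more libraries (17033) were fitted with limma 3.58.1 in R 4.3.3 on log2(TPM + 1), with a mean per group, 9 residual degrees of freedom and a mean-dependent prior variance, and p-values were adjusted by Benjamini-Hochberg over all 17033 genes in each of 19 comparisons. The fit was tested on simulated data. Genes named first are those called, without overlap of the groups and with a mean of at least 5 TPM in the higher group, up to 12 per comparison (8 per interaction, 3 per comparison from the other lists), and the highest of each class. Values of further called genes were chosen for print after they were seen. The members and lists were chosen with earlier results of these data known.

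Replicate numbers did not pair the libraries: over 36 pairs of groups, correlations of same-numbered deviations ran from -0.09 to 0.076. Alternatives were a pseudocount of 0.1, quantile normalization, median-ratio scaling, no filter or one at 5 TPM, a replicate block, a fit of the compared libraries alone, the adjusted p alone and leaving out each replicate. Overlaps used GENCODE 29 and promoters RefSeq GRCh38.p14.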

Additional observations from a re-analysis of the deposited data

Results flagged for a closer look

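The change from day 2 to day 4 was tested for a difference between the origins, and 24 interactions (pNE-derived minus aNE-derived change, on log2(TPM + 1), limma, called where the adjusted p was below 0.05 and the value at least 1 in size) are given here, the 8 largest in each medium among guidance genes with a group mean of at least 5 TPM. Plating density rose further for pNE than for aNE, so these interactions cannot tell origin from density. In forebrain medium, the change was higher from pNE for SEMA5B (2.49), SEMA3C (2.01) and EFNB2 (1.75). It was lower from pNE for SLIT3 (-2.13), PLXND1 (-2.13), EPHA2 (-2.03), SEMA3E (-1.98) and SEMA5A (-1.96). In midbrain medium, SEMA3C (2.65), EPHA4 (2.32), SEMA3B (2.13) and PLXNA2 (1.93) changed upward from pNE relative to aNE, and EPHB3 (-3.38), SLIT2 (-2.11), SEMA6B (-1.63) and NRP1 (-1.59) downward. EPHB3 already stood high in pNE at day 2 and reached the same range in aNE_M by day 4, at 24.9 and 33.1 TPM against 19.0 and 19.0 TPM in pNE_M. In hindbrain medium, the interaction was positive for SEMA5B (3.86), EPHA4 (2.58), ROBO2 (1.95) and PLXNA2 (1.89), and negative for EPHA2 (-2.42), PLXND1 (-1.89), DCC (-1.81) and EPHB3 (-1.67). EPHA2, EPHA4, EPHB3, PLXNA2, PLXND1, SEMA3C and SEMA5B appear in more than 1 medium, and these interactions share the aNE and pNE libraries. The 2 values of SEMA3C were not called with a pseudocount of 0.1.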

How the results depend on the processing

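Counts of called guidance genes stayed within 1.5 times the reported count without a filter, with the filter at 5 TPM, under median-ratio scaling and under quantile normalization. They also did so without EPHA8 and SEMA3D, which were above the filter in 1 group each, a setting chosen after seeing the data. Asking only for an adjusted p under 0.05 gave 41 genes for aNE and 40 for pNE against hPSC, 28 for pNE against aNE, 43, 34 and 32 for origin in forebrain, midbrain and hindbrain medium, 35 for aNE_T and 39 for aNE_H against aNE, 36, 47 and 40 for pNE_T, pNE_M and pNE_H against pNE, 38 and 32 for aNE_M and aNE_H against aNE_T, and 37 and 25 for pNE_M and pNE_H against pNE_T. Under this rule 12.3% to 41.5% of all tested genes were called per comparison: 41.5% and 38.4% against hPSC, 13.6% for pNE against aNE, 21.1%, 16.6% and 21.9% for origin in the 3 media, 30.3% and 31.3% for aNE_T and aNE_H against aNE, 33.6%, 35.4% and 37.2% against pNE, 32.5% and 27.2% against aNE_T, and 28.5% and 18.2% against pNE_T. Called the same way, the counts were then 10 for origin in all 3 media, 19 for midbrain against forebrain medium, and 19, 35 and 24 for the change from day 2 in forebrain, midbrain and hindbrain medium, beside 4.43%, 16.2%, 17.3%, 20.1% and 17.4% of all tested genes. A pseudocount of 0.1 gave 10 genes for pNE against aNE, 25 for pNE_H against pNE, 8 for pNE_H against pNE_T and 11 for the shared change in hindbrain medium. Fitting only the libraries compared gave 3 for pNE against aNE, 3 for pNE_H against pNE_T and 5 for the shared change in forebrain medium; the cause was not tested for any of these settings beyond their construction. Leaving out each replicate gave 5 to 9 for pNE against aNE, 9 to 16 for aNE_H against aNE_T and 2 to 4 for origin in all 3 media, with the extremes without pNE replicate 2, aNE_H replicate 2 and aNE_H replicate 1. The replicate block changed no call of a named gene and left the count for pNE against aNE at 5. Among the values of named genes, the other list genes included, no direction turned. Calls were lost for 25 of these values when only the compared libraries were fitted, and 233 were kept. The pseudocount of 0.1 lost 4 and kept 254, and median-ratio scaling and quantile normalization lost 1 each. Calls were also lost in some fits that left out a replicate, which leave 1 library in a group. TPM gives no depth, so what read number limits cannot be stated.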

Other observations

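Guidance genes that were called in none of the 19 limma comparisons included some of the most abundant. EPHB4, an Eph-B receptor of EFNB2, had a mean of 115 TPM over the 18 libraries, the semaphorin receptor PLXNB1 109.5 TPM and the membrane semaphorin SEMA4C 92.0 TPM. The other genes never called were EFNB3, EPHA10, NTN3, PLXNB3, SEMA3G, SEMA4B and SEMA6C. At the other end, PLXNA2, SEMA5B and SEMA6D were called in 13 comparisons each, SEMA3C and SLIT2 in 12, and EPHB3 and NRP1 in 11, many of which share libraries.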
